A study of Mus musculus with 8 samples.

Results

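The nuclear genes of respiratory complex I were followed in P19 cells after knockdown of Upf3a and a block of transcription. The members are the genes of the deposited expression table whose symbol is Nduf followed by a, b, c, s or v and a number, together with Ndufab1; assembly factors (Ndufaf genes) and pseudogenes were left out. This rule found 38 of the 23284 genes in the table, it used no measured value, and all 38 passed the filter of a mean of 1 FPKM or more that left 11452 genes for the tests. FPKM counts the fragments of a gene per kilobase of its transcript with the sequencing depth of the library taken into account. P19 cells were derived from a mouse teratocarcinoma and keep properties of early embryonic cells. The siUpf3a arm was transfected with siRNA to Upf3a and the siControl arm with control siRNA. After 24 h all cells of both arms received actinomycin D, which stops transcription, and total RNA was taken at 0, 15, 105 and 225 min. There is no untreated arm, the knockdown is transient and partial, and the line is a tumour line. The study asked how loss of UPF3A, a factor of nonsense-mediated mRNA decay, changes the stability of transcripts.

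Complex I is the largest enzyme of the respiratory chain and sits in the inner mitochondrial membrane. Its hydrophilic arm takes electrons from NADH in the N module and passes them along iron-sulfur clusters to ubiquinone in the Q module, and its membrane arm pumps protons. A few catalytic core subunits carry the flavin and the iron-sulfur clusters; the many accessory subunits surround and stabilise them. The hydrophobic core of the membrane arm is encoded by mitochondrial DNA, and those genes were not analysed here. In cultured cells, mRNAs for respiratory chain subunits are generally among the longer-lived ones.

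The labels list 2 cultures for each of the 8 conditions, and the deposited table has 1 FPKM value per gene and condition with a lower and an upper limit. The error therefore comes from these values and not from cultures, and n counts time points. For the level difference, p-values measure only the disagreement between time points, which may be technical. For the slope over both arms they measure the disagreement between the arms and the departure from a straight line. For the difference in slope they measure the departure of the arms' ratio from a straight line. FPKM totals ran from 537437 to 923333 in the siUpf3a arm and from 537350 to 880304 in the siControl arm, and the depth in reads is unknown. Upf3a itself had 5.27, 4.52, 4.76 and 4.16 FPKM at 0, 15, 105 and 225 min in the siUpf3a arm, against 13.6, 13.9, 14.0 and 15.0 FPKM in the siControl arm, a mean of 33.1% of control. On the log2 scale the ratio averaged -1.42 (SD 0.17, n = 4 time points). The exact two-sided sign-flip p of 0.125 is the smallest that 4 pairs allow. The markers of P19 cells ranged widely. Pou5f1 was the highest, at 1534 to 3153 FPKM in the siUpf3a arm and 1391 to 2790 FPKM in the siControl arm. Sox2 went from 75.1 FPKM at 0 min to 11.6 at 225 min in the siUpf3a arm, and from 58.3 to 12.6 in the siControl arm. Dppa5a had 8.99 to 22.7 FPKM in the siUpf3a arm and 10.4 to 22.6 in the siControl arm. Fgf4 was the lowest, at 0.746 to 6.13 FPKM in the siUpf3a arm. The summed level of the 9 P19 markers was 2508 to 4281 FPKM in the siUpf3a arm and 2046 to 3444 FPKM in the siControl arm. By limma, 6 of the 9 rose in level in the siUpf3a arm and 0 fell (Benjamini-Hochberg adjusted p below 0.05). These counts were 5 and 1 under median-of-ratios scaling, and 6 and 1 under quantile normalization. For comparison, the same fit gave a rise for 26.1% of the 11452 genes and a fall for 22.3%. The marker counts here and below are to be set against these shares. Markers of muscle summed to 13.3 to 26.8 FPKM in the siUpf3a arm and 14.6 to 26.6 FPKM in the siControl arm, nearly all of it Actc1, while Tnnt2 stayed near 0. Markers of neurons, mostly Tubb3, summed to 45.2 to 61.0 FPKM in the siUpf3a arm and 49.6 to 70.6 FPKM in the siControl arm, and 2 of the 3 tested (Syp and Tubb3) fell in level. Fibroblast markers summed to 8.15 to 11.8 FPKM in the siUpf3a arm and 9.30 to 14.5 FPKM in the siControl arm, and 1 of the 3 tested (Col1a2) fell. Endoderm markers reached 3.54 FPKM in the siUpf3a arm and 3.22 FPKM in the siControl arm, and blood markers, with Hbb-b1 at 0, reached 4.85 FPKM in the siUpf3a arm and 3.48 FPKM in the siControl arm. The part of these markers in the results on complex I was not tested.

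Most complex I mRNAs lay far above the filter of 1 FPKM. FPKM is scaled per length, so levels can be set against each other: mean FPKM over the 8 conditions ran from 1.33 to 608 with a median of 128, and 24 members had a mean of 100 FPKM or more. Ndufa7, an accessory subunit of the N module, was the most abundant, with 379, 383, 587 and 1071 FPKM in the siUpf3a arm, against 419, 405, 661 and 956 FPKM in the siControl arm at 0, 15, 105 and 225 min. Ndufa4, which was first assigned to complex I and is now counted as a subunit of complex IV, had 398, 408, 606 and 955 FPKM in the siUpf3a arm, against 447, 391, 628 and 874 FPKM in the siControl arm. These 2 stood apart from the next gene, Ndufb7, a distal membrane arm subunit that had 187, 193, 261 and 411 FPKM in the siUpf3a arm, against 185, 172, 258 and 346 FPKM in the siControl arm. In each of these genes the value at 225 min was the highest of its arm, and the arms lay close together at every time.

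At the low end stood 3 members. Ndufa11, a proximal membrane arm subunit, had 20.4, 20.9, 28.0 and 43.7 FPKM in the siUpf3a arm, against 23.4, 20.9, 31.7 and 43.2 FPKM in the siControl arm. Ndufa4l2, the paralog of Ndufa4, was barely present, with 1.08, 0.971, 1.18 and 1.98 FPKM in the siUpf3a arm, against 0.913, 1.22, 1.28 and 2.00 FPKM in the siControl arm, and its exons overlap those of Shmt2 on the other strand. Ndufs5, a small proximal membrane arm subunit, had 10.8, 2.14, 3.88 and 6.61 FPKM in the siUpf3a arm, against 5.79, 0.00109, 7.02 and 5.996 FPKM in the siControl arm. Ndufs5 is the member without a steady course: its values jump between times in both arms, its lower limit is 0 in 7 of the 8 conditions, and the genome also holds the pseudogene Ndufs5-ps, so its reads may be split. The labels do not say whether the counting used strand. Exons of 15 members overlap a gene on the other strand (such as Ndufs6 with Mrpl36 and Ndufb5 with Mrpl47), and 6 members share a locus in the table with another gene, which makes 16 members. With the 3 members that overlap a gene on their own strand (Ndufb2, Ndufb8 and Ndufb9) and the 3 with a pseudogene (Ndufs5, Ndufab1 and Ndufa12), reads may be split or mixed in 20 members.

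After transcription stopped, the share of complex I mRNA in the remaining mRNA grew in both arms. The summed FPKM of the 38 genes was 4122, 4210, 5642 and 8998 at 0, 15, 105 and 225 min in the siUpf3a arm, and 4320, 4097, 5930 and 8121 in the siControl arm. As a share of all FPKM this was 0.767%, 0.768%, 0.852% and 0.974% in the siUpf3a arm, and 0.768%, 0.763%, 0.864% and 0.922% in the siControl arm. Both arms were thus flat over the first 15 min and high at 225 min. FPKM is relative, and its total over all genes was not constant. From 0 to 225 min the total went from 537437 to 923333 in the siUpf3a arm. In the siControl arm it went from 562848 to 880304. A gene whose value grows by less than the total loses share, so growth alone does not mean a slower loss than the bulk. Some members lost share in this way in the siControl arm, Ndufs1, Ndufs7 and Ndufv2 among them. A growing value also does not mean that new mRNA was made. In bulk RNA, fewer cells of a type and less RNA per cell cannot be told apart.

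The slope over hours, fitted to log2(FPKM + 1) with limma over both arms, was called higher than 0 for 37 of the 38 members and lower for none (Benjamini-Hochberg adjusted p below 0.05; 37 had an unadjusted p under 0.05). The background is high, since 42.7% of the 11452 genes tested had a slope called higher and 38.6% one called lower. The members' median slope was 0.25 log2 units per hour, against 0.014 for all genes tested, and this median lies at percentile 96.7 of all genes' slopes. The direction depends on what the values are scaled to: scaled to the mean of 76 ribosomal protein genes, which are themselves slowly lost, 4 members were called higher and 17 lower, with a median slope of -0.034, against a median of -0.24 over all genes. The members' median thus lay above that of all genes by 0.24 log2 units per hour before that scaling and by 0.20 after it. Quantile normalization left 35 calls, all higher, and this gap at 0.067. The members' median ratio of FPKM at 225 min to FPKM at 0 min was 1.98 in the siUpf3a arm and 1.78 in the siControl arm, against 1.05 and 1.02 over all genes tested. The value at 225 min was above that at 0 min in both arms in 37 of 38 members, and the exception was Ndufs5.

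**Figure D1:**
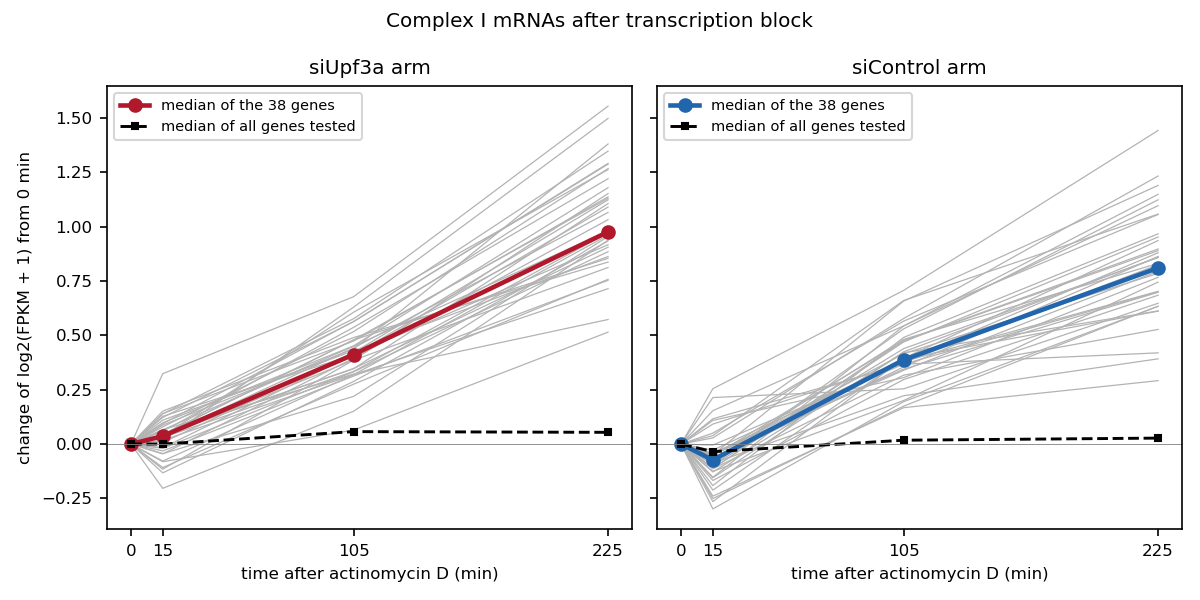
Change of log2(FPKM + 1) from 0 min (y axis, log2 units) against time after actinomycin D (x axis, min) in the siUpf3a arm (left) and the siControl arm (right). Grey lines are 36 single genes (Ndufs5, listed near 0 in 1 condition, is among those not drawn), the coloured line is the median of the 38 genes and the dashed line the median of all genes tested. At 225 min the median of the 38 genes stands at 0.98 in the siUpf3a arm and 0.81 in the siControl arm. The median of all genes stands at 0.054 and 0.027. The direction depends on the scale: FPKM totals grew too, and 17 genes are called lower with ribosomal protein genes as the scale.

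The largest slopes belonged to small accessory subunits. Ndufb2, of the distal membrane arm, had 60.5, 75.9, 97.3 and 179 FPKM in the siUpf3a arm, against 59.2, 70.8, 97.3 and 163 FPKM in the siControl arm at the 4 times, and its slope was 0.37 per hour (log2 units, SE 0.022) with a limma adjusted p of 2.56e-06. Both arms show the same steady course, with each value at or above the one before. Ndufa7 followed with a slope of 0.37 (SE 0.022, limma adjusted p = 2.60e-06). Ndufc1, a small proximal membrane arm subunit, had 119.7, 127, 162 and 313 FPKM in the siUpf3a arm, against 133, 119, 194 and 295 FPKM in the siControl arm, a slope of 0.35 (SE 0.024). Its siUpf3a value at 105 min lies below the siControl one, and the arms are nearer each other at the other times. Ndufb4, of the distal membrane arm, had 118, 126, 175 and 290.1 FPKM in the siUpf3a arm, against 137, 128, 198 and 299 FPKM in the siControl arm, with the siUpf3a arm the lower one at all 4 times. Ndufa1, a proximal membrane arm subunit encoded on the X chromosome, had 104, 109, 152 and 244 FPKM in the siUpf3a arm, against 102, 104, 153 and 241 FPKM in the siControl arm. Its arms were the closest of all members, with an SD of the log2 ratio of 0.030 over the 4 times, and its slope matched that of Ndufb4 at 0.33 (SE 0.013 for Ndufa1 and 0.017 for Ndufb4). Ndufb2, Ndufa7, Ndufc1 and Ndufb4 were also called higher with ribosomal protein genes as the scale, with slopes of 0.036 to 0.079, and Ndufa1 was not (0.036, adjusted p = 0.067 by limma).

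The catalytic core subunits had the lower slopes. The 7 nuclear genes of this class include Ndufv1, which binds NADH and flavin, and Ndufv2, Ndufs1, Ndufs7 and Ndufs8, which carry iron-sulfur clusters. All 7 slopes were called higher than 0 by limma, and all 7 lower with ribosomal protein genes as the scale, and they ran from 0.14 for Ndufs1 to 0.25 for Ndufs8 with a median of 0.18. The 29 accessory subunits (without Ndufa4 and its paralog) had a median slope of 0.27, and 19 of them lay above the highest core subunit. Slopes below 0.2 were found in 5 of the 7 core subunits and in 0 of the 29 accessory ones. From 0 to 225 min the summed FPKM of the 7 core subunits went from 533.1 to 942.9 in the siUpf3a arm. In the siControl arm the sum went from 527.9 to 769.5, less growth than that of the total (562848 to 880304). As a sum, the core subunits thus lost share of all FPKM in the siControl arm. Ndufs1, the largest subunit of the complex, had 44.4, 46.5, 55.7 and 66.5 FPKM in the siUpf3a arm, against 49.3, 46.3, 57.7 and 65.0 FPKM in the siControl arm. The ratio of its values at 225 and 0 min in the siUpf3a arm was lower than that of any member but Ndufs5, and the arms cross. By place in the complex, the median slope was 0.25 for the 10 genes of the N module, 0.21 for the 6 of the Q module, 0.27 for 9 of the proximal membrane arm and 0.27 for 11 of the distal membrane arm. The lists by role were put together by hand for this description and their difference was not tested, since genes are not replicates.

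**Figure D2:**
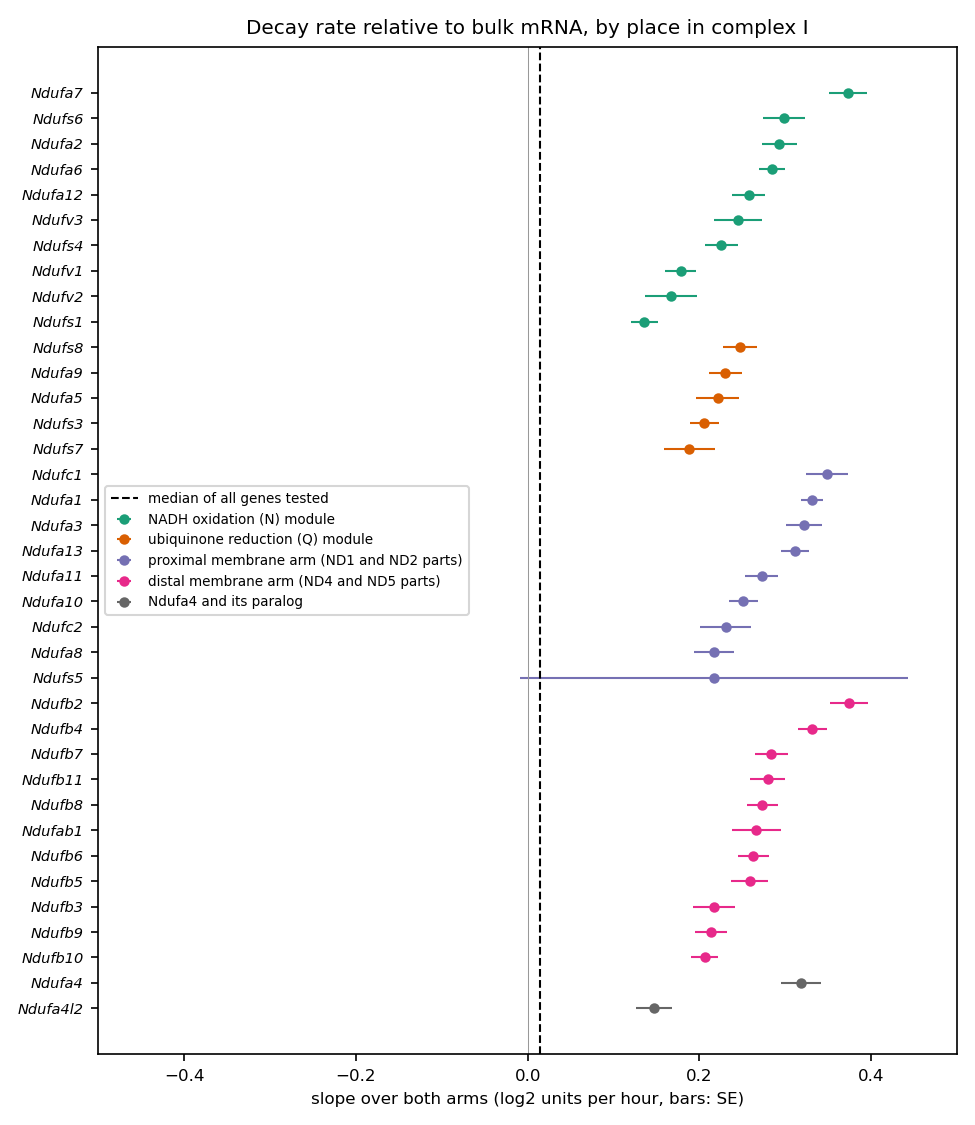
Slope of log2(FPKM + 1) over hours in both arms together (x axis, log2 units per hour, bars are SE) for 37 of the 38 genes (y axis), coloured by place in the complex. All points lie right of 0 and of the dashed line, the median of all genes tested (0.014), from 0.14 for Ndufs1 to 0.37 for Ndufb2; scaled to ribosomal protein genes, 17 of the 38 were called lower and 4 higher. The SE bar of Ndufs5 crosses 0.

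Members with longer coding sequences had lower slopes. The Spearman correlation between coding length and slope over the 38 genes was -0.60. That between mean FPKM and slope was 0.63, but mean and slope are computed from the same values and are not independent. These are descriptions across genes that share the same libraries, and core subunits are the longer ones, with a median coding length of 789 bases against 411 bases in the 29 accessory subunits. Over 11013 tested genes with an annotation, the correlation of slope with coding length was -0.31. Complex I genes are short as a group: their median transcript length was 921 bases against 3018 over tested genes, their median coding length 433.5 against 1377 bases, and their median 3' UTR 149.5 against 1020 bases. They had a median of 4 exons against 9, and a GC content of 52.2% against 50.6%. Transcript length went with the slope over all tested genes too (rho -0.42), and its part in the members' slopes was not tested.

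Promoters of 4 members are printed as a description of their start sites. These are Ndufab1 and Ndufa5, which differed most between the arms (described next), Ndufa7, the most abundant member, and Ndufs6, an N module subunit that binds zinc. The courses above were measured after transcription was stopped, and a link between promoters and courses was not tested. The windows are from RefSeq on GRCm38.p6 and cover 250 bases before to 50 bases after the start site, read 5′ to 3′ along the gene. Capitals mark matches to CGCANGCG, the core of the site of nuclear respiratory factor NRF1, or AAGATGGC, a YY1 core; CCGGAAG (ETS factors such as GABPA) and TCAAGGTCA (ESRRA) were searched too, on both strands, and are absent from these 4 windows; the Ndufab1 window holds no match. Ndufab1 lies at chr7:122101799-122102098 on the minus strand, Ndufa5 at chr6:24527641-24527940 on the minus strand, Ndufa7 at chr17:33824322-33824621 on the plus strand and Ndufs6 at chr13:73328433-73328732 on the minus strand.
Ndufab1: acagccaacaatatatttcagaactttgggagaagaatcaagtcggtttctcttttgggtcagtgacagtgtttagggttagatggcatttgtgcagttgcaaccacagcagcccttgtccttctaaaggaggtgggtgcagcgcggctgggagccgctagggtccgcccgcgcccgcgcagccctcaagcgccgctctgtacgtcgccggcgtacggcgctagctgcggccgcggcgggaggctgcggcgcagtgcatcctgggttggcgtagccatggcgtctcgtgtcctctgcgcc
Ndufa5: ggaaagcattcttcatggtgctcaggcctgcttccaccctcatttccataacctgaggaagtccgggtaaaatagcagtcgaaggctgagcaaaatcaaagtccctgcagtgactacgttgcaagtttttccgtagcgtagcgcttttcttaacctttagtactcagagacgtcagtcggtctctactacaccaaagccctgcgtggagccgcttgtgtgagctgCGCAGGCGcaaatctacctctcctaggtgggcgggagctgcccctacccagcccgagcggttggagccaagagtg
Ndufa7: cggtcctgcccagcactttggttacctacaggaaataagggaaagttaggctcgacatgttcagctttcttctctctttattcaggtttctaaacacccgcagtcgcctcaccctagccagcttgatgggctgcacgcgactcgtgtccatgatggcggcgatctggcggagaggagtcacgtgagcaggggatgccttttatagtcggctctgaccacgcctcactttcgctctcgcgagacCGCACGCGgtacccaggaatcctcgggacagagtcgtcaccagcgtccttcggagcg
Ndufs6: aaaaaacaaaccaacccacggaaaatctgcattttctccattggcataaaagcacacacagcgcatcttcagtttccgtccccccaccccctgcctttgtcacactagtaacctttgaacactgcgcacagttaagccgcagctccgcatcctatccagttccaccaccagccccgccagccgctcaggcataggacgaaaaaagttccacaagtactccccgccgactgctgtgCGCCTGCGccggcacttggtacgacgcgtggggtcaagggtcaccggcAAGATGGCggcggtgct

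Of the 38 members, 33 had a promoter window, with 35 windows in all. The NRF1 core was found in 10 of the 33 members, among them Ndufa5, Ndufa7 and Ndufs6, and in 34.3% of their windows, against 17.6% of windows of tested genes and 8.21% of all 32851 windows. The YY1 core was found in 7 members, 20% of their windows against 4.46% for tested genes and 2.75% of all windows. The ETS core was found in 4 members, 11.4% of windows against 17.7% and 8.86%. Of the 33, Ndufs6 was the only member with both an NRF1 and a YY1 core, and the ESRRA core was found in none, against 0.294% of windows of tested genes and 0.423% of all windows. A TATAAA box was found in 4 members, 14.3% of windows against 6.62% and 13.6%; 1 of them also holds the NRF1 core (Ndufa7, where the box lies on the other strand), 1 the ETS core and 2 the YY1 core. A match describes letters in the window and is not evidence of binding.

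Between the arms, most complex I mRNAs differed little in level. With time point as a factor, limma called 7 of 38 members higher in the siUpf3a arm and 0 lower (Benjamini-Hochberg adjusted p below 0.05; 10 had an unadjusted p under 0.05). The background is 26.1% of tested genes higher and 22.3% lower, 48.4% in all, so the members were not called more often than the background. Their median log2 difference was -0.00602, against 0.0046 for all genes, and 22 members lay within 0.1 log2 units of 0. Of all members, 10 had a higher value in the siUpf3a arm at all 4 times, 2 had a lower one at all 4 (Ndufa6 and Ndufb4) and 26 were mixed. The count of calls depends on the scaling: 5 higher and 9 lower under quantile normalization, 6 and 4 under median-of-ratios scaling, and 13 and 0 with ribosomal protein genes as the scale. Without time as a factor none was called in either direction.

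The 2 largest differences belonged to Ndufab1 and Ndufa5. Ndufab1 encodes the mitochondrial acyl carrier protein, which serves fatty acid synthesis and iron-sulfur cluster assembly as well as complex I (chromosome 7, 122085403 to 122101886, minus strand, GRCm38). It had 46.5, 50.7, 69.1 and 115 FPKM in the siUpf3a arm, against 34.3, 37.1, 42.7 and 59.1 FPKM in the siControl arm at 0, 15, 105 and 225 min. The siUpf3a arm was the higher one at every time, and the gap widened at the late times. Its log2 ratio averaged 0.62 ± 0.25 over the times (SD, n = 4 time points), a 1.54-fold difference with a limma adjusted p of 0.00124. The authors' limits of the arms were apart at 225 min, at 82.3 to 147.9 FPKM in the siUpf3a arm and 41.2 to 77.0 FPKM in the siControl arm. No other member had limits apart at any time, 1 of 38 against 2.90% of genes tested. Ndufab1 has a pseudogene, Ndufab1-ps, and overlaps the antisense gene Gm44986, so part of its reads may belong elsewhere.

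Ndufa5, an accessory subunit of the Q module (chromosome 6, 24518666 to 24528013, minus strand), had 59.7, 55.0, 78.3 and 105 FPKM in the siUpf3a arm, against 44.4, 37.1, 50.2 and 69.4 FPKM in the siControl arm. Every siUpf3a value was above the siControl value of its time, and the arms kept about the same distance throughout, with a mean log2 ratio of 0.55 ± 0.093 (SD, n = 4 time points), 1.46-fold, and a limma adjusted p of 2.01e-04. Ndufa5 shares no locus and overlaps no gene on the other strand. Ndufs7, the core subunit that carries the last iron-sulfur cluster before ubiquinone, had 125, 124, 167 and 237 FPKM in the siUpf3a arm, against 102, 102, 132 and 137 FPKM in the siControl arm. Its log2 ratio averaged 0.42 ± 0.24 (SD, n = 4 time points, limma adjusted p = 0.00674), with the widest gap at 225 min. Its locus in the table is shared with 46 other genes and its lower limit is 0 in all 8 conditions, so this value is uncertain. The calls of Ndufab1, Ndufa5 and Ndufs7 held under every alternative except the fit without time as a factor (adjusted p by limma 0.387, 0.356 and 0.465 there).

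The remaining 4 calls were smaller and less stable. Ndufc2, a proximal membrane arm subunit, had 109, 106, 127 and 212 FPKM in the siUpf3a arm, against 96.3, 83.0, 127 and 148 FPKM in the siControl arm. Its arms were nearly equal at 105 min and apart at 225 min, and its mean log2 ratio was 0.26 ± 0.22 (SD, limma adjusted p = 0.0326). Ndufv2, the iron-sulfur core subunit beside the flavin, had 55.1, 51.0, 66.8 and 93.8 FPKM in the siUpf3a arm, against 52.6, 44.4, 59.1 and 64.6 FPKM in the siControl arm, and its mean log2 ratio was 0.24 ± 0.20 (SD, limma adjusted p = 0.0322). Here too the gap was widest at 225 min. Ndufa12, an accessory subunit of the N module with a pseudogene, had 142, 129.5, 174 and 272 FPKM in the siUpf3a arm, against 124, 121, 161 and 228 FPKM in the siControl arm, and its mean log2 ratio was 0.16 ± 0.076 (SD, limma adjusted p = 0.0218). Ndufb10, of the distal membrane arm, had 60.2, 66.9, 84.9 and 108 FPKM in the siUpf3a arm, against 58.9, 57.2, 75.1 and 96.2 FPKM in the siControl arm, and its mean log2 ratio was 0.15 ± 0.083 (SD, limma adjusted p = 0.0341). All 4 were higher in the siUpf3a arm at 4 of 4 times, each for n = 4 time points. Without 225 min none of the 4 was called, with log2 differences of 0.17, 0.15, 0.13 and 0.14 in the order given, and Ndufc2 and Ndufb10 each lost the call in 6 of 13 alternatives.

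**Figure D3:**
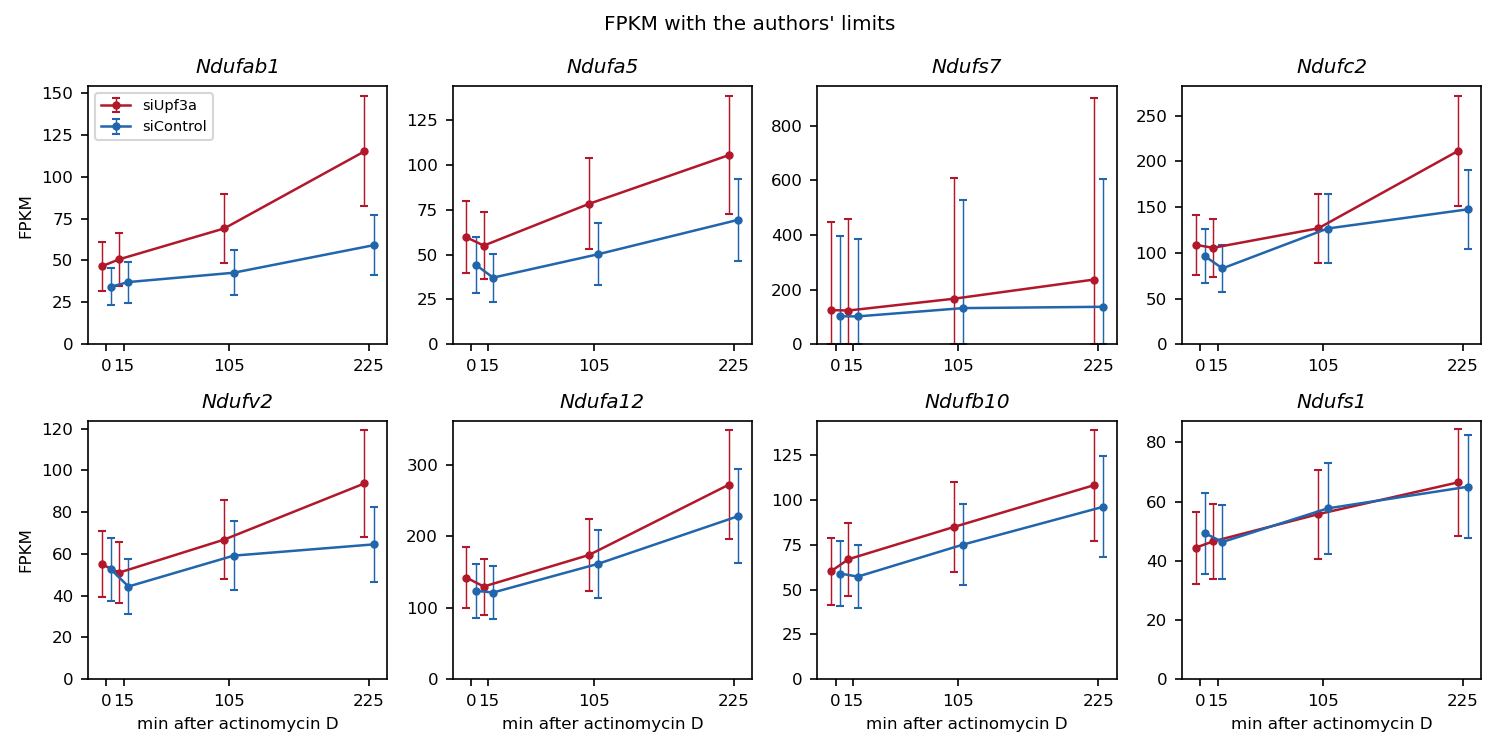
FPKM (y axis) against time after actinomycin D (x axis, min) for the 7 genes called higher in the siUpf3a arm and for Ndufs1, which was not called; red is siUpf3a, blue is siControl and bars are the authors' lower and upper limits. The limits of the arms are apart for Ndufab1 at 225 min and overlap in all other panels and times, and those of Ndufs7 reach down to 0. The number of genes called higher is 7 here, 5 under quantile normalization, 6 under median-of-ratios scaling and 13 with ribosomal protein genes as the scale.

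The pattern over the times was shared by many members and was not particular to them. The median log2 ratio of siUpf3a over siControl was -0.053 at 0 min, 0.060 at 15 min, -0.050 at 105 min and 0.13 at 225 min, against -0.0083, 0.022, 0.0062 and 0.0095 for all genes tested. At 225 min 33 of the 38 members were higher in the siUpf3a arm, while at 0 min and again at 105 min 25 of the 38 were lower. Of the 11452 genes tested, 5904 were higher at 225 min, 5529 at 0 min and 5850 at 105 min. The 38 tested subunits of respiratory complexes II to V had a like course, with medians of -0.088, 0.046, -0.049 and 0.15. Genes of the citric acid cycle did too, with medians of -0.066, 0.048, -0.052 and 0.13. The ratio thus went up and down between successive times, and each time rests on 1 value per arm. FPKM totals of the arms differed in the same directions. They were 537437, 548042, 662435 and 923333 in the siUpf3a arm, against 562848, 537350, 686647 and 880304 in the siControl arm. The siUpf3a total was thus the lower one at 0 and 105 min and the higher one at 15 and 225 min. The part of the totals in this pattern was not tested.

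**Figure D4:**
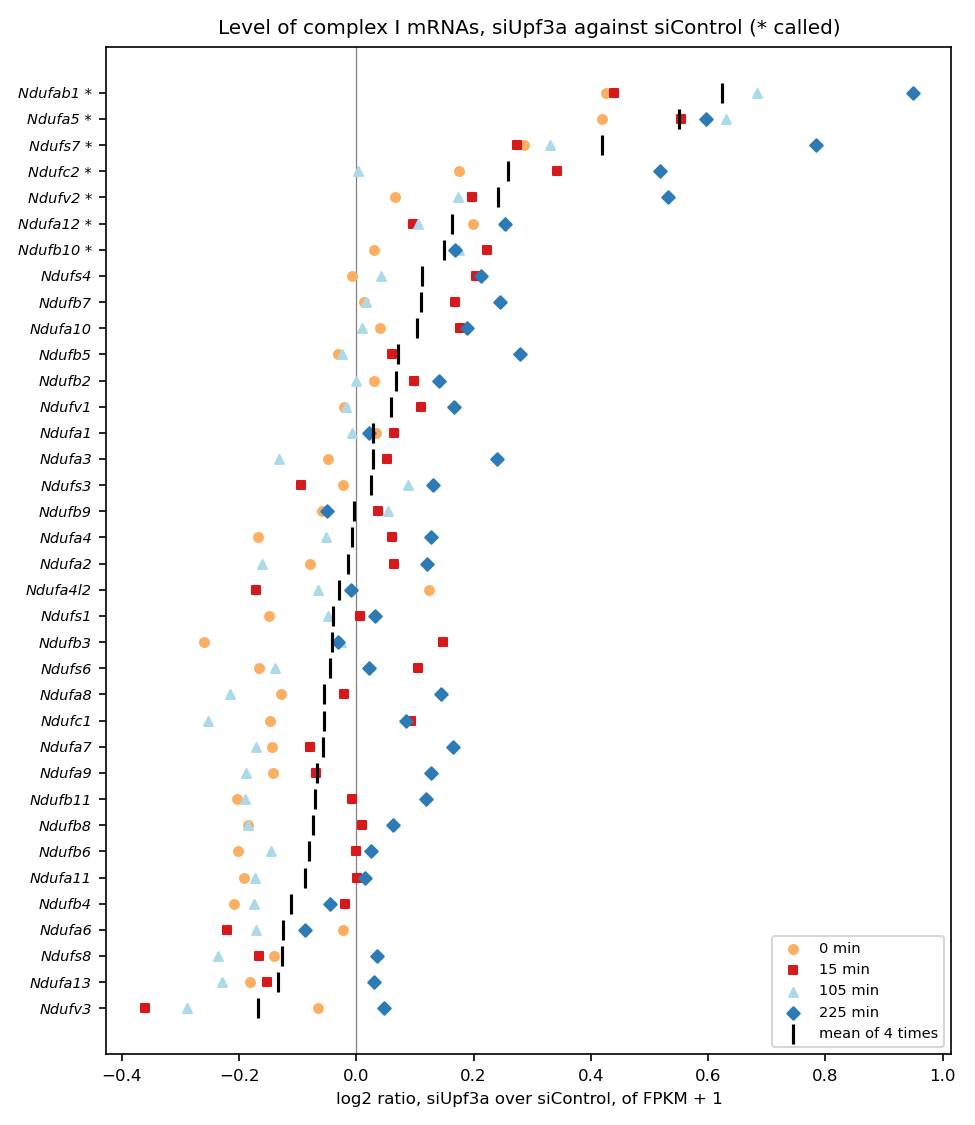
Log2 ratio of FPKM + 1, siUpf3a over siControl (x axis), at 0, 15, 105 and 225 min (symbols) and the mean of the 4 times (bar) for 36 genes (y axis; Ndufs5 is among those not drawn); an asterisk marks a call by limma. Points at 225 min lie mostly right of 0 and those at 0 and 105 min mostly left. The FPKM totals of the arms differ in the same directions at these times. The means run from -0.17 for Ndufv3 to 0.62 for Ndufab1. The median of the members is -0.00602 against 0.0046 for all genes here, and 0.077 against 0.080 with ribosomal protein genes as the scale.

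The decay rate difference asks whether the slope in the siUpf3a arm differs from that in the siControl arm, which is the question of the study. No member was called (limma, Benjamini-Hochberg; 3 had an unadjusted p under 0.05, and limma with trend and robust estimation also called none). Over all genes tested 1 was called, 0.00873%, and 762 had an unadjusted p under 0.05. This fit uses most of the 8 values of a gene for its own terms. The lack of calls therefore does not show that the slopes were equal. The median slope of the members was 0.27 log2 units per hour in the siUpf3a arm and 0.23 in the siControl arm. The fitted difference was above 0 in 34 of 38 members, against 6099 of the 11452 genes tested. Its median over the members was 0.035 (log2 units per hour), against 0.0033 over all genes. Subunits of complexes II to V were alike, with 35 of 38 above 0 and a median of 0.042. The members' median rests on the last time point: without 225 min it was -0.033, against 0.0064 over all genes. Scaled to ribosomal protein genes it was -0.0031, but that scaling also moved the median of all genes to -0.029, so the members lay 0.026 above all genes there and 0.031 above them before it. Under quantile normalization the gap was smaller, with a members' median of 0.0080 against -0.00027 over all genes.

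The 3 members with an unadjusted p under 0.05 were all called in level too. For Ndufab1 the slope was 0.34 in the siUpf3a arm and 0.19 in the siControl arm, in log2 units per hour (SE 0.021 each), a difference of 0.14 (SE 0.027) with a limma adjusted p of 0.619. Ndufs7 had slopes of 0.25 in the siUpf3a arm and 0.12 in the siControl arm, a difference of 0.13 (limma adjusted p = 0.651). Ndufv2 had slopes of 0.22 in the siUpf3a arm and 0.11 in the siControl arm, a difference of 0.11 (limma adjusted p = 0.680). None passed the threshold over all genes, so these 3 are values without a call. At the other end, Ndufb9, a distal membrane arm subunit, had 122, 119, 152 and 206 FPKM in the siUpf3a arm, against 127, 116, 146 and 214 FPKM in the siControl arm, with slopes of 0.21 in the siUpf3a arm and 0.22 in the siControl arm. Ndufa1 had slopes of 0.33 in the siUpf3a arm and 0.34 in the siControl arm. Ndufs5 had the lowest difference, -0.34 (SE 0.19), which rests on the unsteady values given above.

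**Figure D5:**
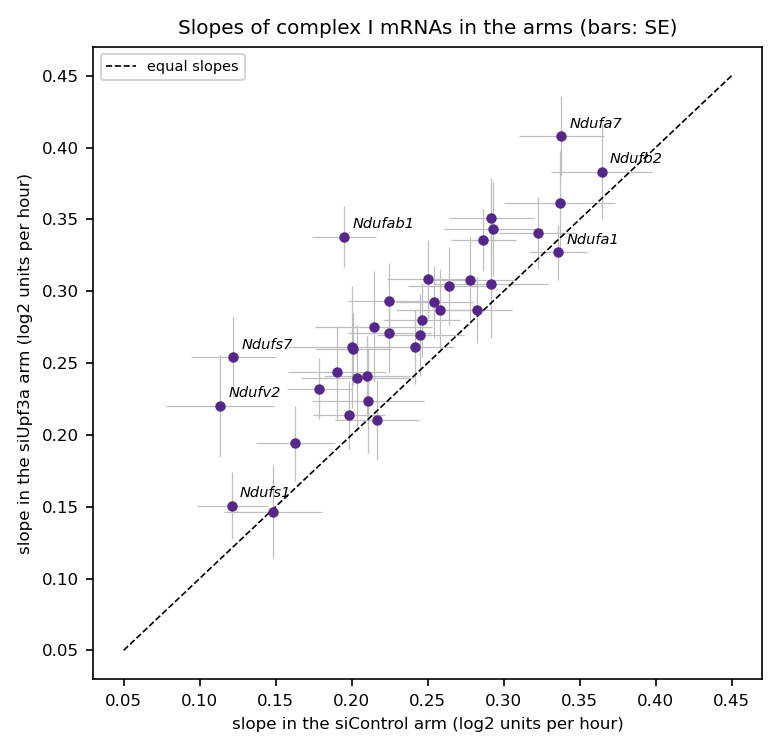
Slope in the siUpf3a arm (y axis) against slope in the siControl arm (x axis), both in log2 units per hour with SE bars, for 36 genes (Ndufs5 is among those not drawn); the dashed line marks equal slopes. Most points lie slightly above the line, Ndufab1, Ndufs7 and Ndufv2 farthest from it, and no difference was called. The median difference is 0.035 here and -0.033 without 225 min. It lies 0.031 above that of all genes here and 0.026 above it scaled to ribosomal protein genes (-0.0031 against -0.029). Under quantile normalization it is 0.0080 against -0.00027 over all genes.

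Genes that work with complex I were described from lists made for this purpose, whose counts are to be set against the 26.1% of all tested genes called higher and 22.3% called lower in level, and 42.7% and 38.6% in slope. Of 38 tested subunits of complexes II to V, all 38 had a slope called higher over both arms, and their median slope was 0.26. Scaled to ribosomal protein genes, 6 were called higher and 17 lower. Quantile normalization gave 24 higher and 1 lower, with their median slope 0.030 above that of all genes. In level, 2 rose and 1 fell in the siUpf3a arm (2 and 7 under quantile normalization, 9 and 0 with ribosomal protein genes as the scale). The 2 that rose belong to complex III: Uqcrc2 had 78.9, 78.7, 97.8 and 126.2 FPKM in the siUpf3a arm, against 62.7, 54.8, 67.4 and 66.2 FPKM in the siControl arm (log2 difference 0.57, limma adjusted p = 0.00186), and Cyc1, cytochrome c1, had a difference of 0.31 (limma adjusted p = 0.00685). Of 13 tested genes of the citric acid cycle, 12 had a slope called higher and none lower. These slope counts were 8 and 2 under quantile normalization, and 0 and 13 with ribosomal protein genes as the scale. In level, 3 of these genes rose and 1 fell (3 and 4 under quantile normalization, 4 and 0 scaled to ribosomal protein genes).

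Complex I assembly factors, which build the complex but are not part of it, were less uniform. Of 18 tested, 12 had a slope called higher and 4 one called lower, with a median of 0.070 (0 and 17 with ribosomal protein genes as the scale). In level, 5 rose and none fell, with 3 to 9 higher and 0 to 1 lower over the scalings tried. Ndufaf1, a factor of the assembly of the membrane arm, had 7.71, 7.16, 6.36 and 4.85 FPKM in the siUpf3a arm, against 3.60, 2.98, 2.16 and 1.55 FPKM in the siControl arm (log2 difference 1.09, SE 0.059, limma adjusted p = 4.97e-05). Its values go down over time in both arms, unlike those of the subunits. Ndufaf3, which acts early in the assembly of the Q module, had 12.7, 14.2, 15.4 and 21.5 FPKM in the siUpf3a arm, against 8.66, 8.24, 10.1 and 10.2 FPKM in the siControl arm (log2 difference 0.69, limma adjusted p = 0.000563). Ndufaf4, its partner, had a slope of -0.23 per hour (log2 units), and Nubpl, which delivers iron-sulfur clusters to complex I, one of 0.18 (not called higher once scaled to ribosomal protein genes).

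Of 13 tested regulators of mitochondrial gene expression, none had a slope called higher and 9 one called lower, against 38.6% of all genes called lower, with a median of -0.11 (log2 scale, per hour) against 0.014 for all genes. Median-of-ratios scaling gave 10 called lower and quantile normalization 8, and scaled to ribosomal protein genes all 13 were, as were 10723 of the 11452 genes tested. Nrf1 had 21.8, 21.2, 13.8 and 9.94 FPKM in the siUpf3a arm, against 18.9, 18.1, 12.4 and 7.71 FPKM in the siControl arm, a slope of -0.31 (SE 0.017). Gabpb1, a subunit of the ETS factor GABP, had a slope of -0.24 and Pprc1, a coactivator of the PGC-1 family, one of -0.46. In level, 5 regulators rose in the siUpf3a arm (4 to 6 over the scalings), among them Pprc1 (0.71), Gabpb1 (0.57) and Tfam, the mitochondrial transcription factor (0.37), and 2 fell (1 to 4 over the scalings), among them Esrra (-0.33). The next counts are set against the same 26.1% higher and 22.3% lower over all genes. Of 17 genes of mitochondrial protein import (Timm, Tomm and related genes) 8 rose and 1 fell in level. The counts were 8 and 4 under quantile normalization, and 12 and 1 with ribosomal protein genes as the scale. Timm9 stood at 0.97, Timm10 and Timm13 at 0.73 each, and Dnajc19 at 0.38. Of 16 genes of iron-sulfur cluster assembly 4 rose and 2 fell in level. The counts were 3 and 3 under both median-of-ratios scaling and quantile normalization, and 9 and 2 with ribosomal protein genes as the scale. Bola3 stood at 0.84, while Isca2 (-0.29) and Iba57 (-0.25) fell. Of 7 genes of mitochondrial fatty acid synthesis, the pathway of Ndufab1, 3 rose and none fell under every scaling, with Mcat at 0.40 and Cbr4 at 0.33. In none of these lists was a decay rate difference called by limma.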

How the data were processed

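RNA from P19 cells was sequenced in 2 siRNA arms at 4 times. TopHat2, Cufflinks and the mm10 build are named in the submitters' processing notes, without versions. Which gene annotation they used is not stated in these sources. The deposited table holds 1 FPKM per gene and condition, made by the authors from 2 cultures (per the labels), with limits whose level is not stated; how the cultures were combined is not stated either. FPKM is relative, so an even fall of all mRNA is not seen. Read depth is unknown, so no count test was used.

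Columns were matched to conditions by arm and time in their names. Values were taken as log2(FPKM + 1), which understates changes of low genes, for genes that averaged at least 1 FPKM, and tested in R 4.3.3 with limma 3.58.1 over all 11452 such genes, with Benjamini-Hochberg adjusted p below 0.05 as the threshold. The level difference had time as a factor plus arm, the slope had hours plus arm, and the decay rate difference had time as a factor, arm and arm by hours. The fits were tested on simulated data. Coordinates and lengths are from GENCODE vM21 (GRCm38) and promoters from RefSeq (GRCm38.p6).

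Members and lists were chosen with earlier results of these data known. Values in every condition are given for called members (the 5 with the largest effect where over 10 were called), the 3 most and 3 least abundant, and the 3 at each end of the decay rate difference by moderated t; of other lists, up to 4 called genes were eligible. Ndufs1 was added after its values were seen. Alternatives were other pseudocounts, filters, scalings and eBayes settings, each time point left out, no time factor, and smaller sets of members. 1 member is counted in the totals and medians but is not reported by name or drawn here.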

Additional observations from a re-analysis of the deposited data

How the results depend on the processing

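Of 138 alternative values of counts and medians over the members, 122 stayed within the set margin and 16 moved. The margin was wide: a count of 5 called higher in level, against 7 in the main fit, lay within it. A median lay within it if it moved by less than the members' median SE. Counts of the decay rate difference that were 0 and stayed 0 are among the 122. Scaled to ribosomal protein genes, 13 members were called higher in level with a median of 0.0766, 4 slopes were called higher and 17 lower with a median of -0.0343, and the median decay rate difference was -0.00313; the medians of all genes moved with it, to 0.080, -0.24 and -0.029. That scaling also turned the slopes of Ndufb7 (-0.0126), Ndufa11 (-0.0154), Ndufs5 (-0.0109) and Ndufa4l2 (-0.0264), and moved the split over all genes to 3858 higher and 1272 lower in level and to 41 higher and 10723 lower in slope. Quantile normalization gave a median slope of 0.0988 and a median decay rate difference of 0.00801. The number called lower in level was 9 with it, 4 with median-of-ratios scaling, and 1 each with a pseudocount of 5 and with trend and robust estimation. Leaving out each time in turn gave 3 to 6 members called higher in level (3 without 225 min) and 0 to 3 lower (3 without 225 min). The median decay rate difference then ran from -0.0334 (without 225 min) to 0.0568, that of Ndufb9 from -0.0261 to 0.0459, and the slope of Ndufs5 from -0.0735 (without 15 min) to 0.558 (without 0 min). Without time as a factor, 0 members and 358 genes in all were called higher in level and 129 lower. The cause of these shifts was not tested. A set without Ndufs5, Ndufs7 and Ndufa4l2, chosen after seeing the data, gave 6 of 35 called higher in level and 35 of 35 in slope. The arms are paired by time only, through the time factor, since each condition has 1 deposited value. Read depth is unknown, so no value has a counting error.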
